A study of Mus musculus with 8 samples.

Results

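The ribosome-bound transcriptome of lung endothelial cells under baseline conditions was described from 4 libraries, all those titled as control in room air, of the 8 libraries in the study. They were chosen by title alone, and no measured value entered the choice. The control mice were C57BL/6J with the genotype Cdh5-CreERT2; RPL22tm1.1Psam. Cdh5-CreERT2 is a recombinase driven by the promoter of the vascular endothelial cadherin gene and switched on by tamoxifen, and the RPL22tm1.1Psam (RiboTag) allele places a haemagglutinin (HA) tag on the ribosomal protein RPL22 where the recombinase has acted. Mice of 8 weeks were injected in the peritoneum with tamoxifen, 2 mg in corn oil, daily for 5 days. From 10 weeks the control mice spent 3 weeks in room air. The other 4 libraries came from Sox17i∆EC/hypoxia mice, which were given the same tamoxifen, and were not used here.

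Pulling down the HA tag from lung is meant to recover ribosomes of recombined cells together with the messenger RNAs they carry. The profile is thus meant to reflect transcripts on ribosomes and not the whole RNA pool. No library is labelled as input or as an untagged pulldown, so RNA carried along without the tag was not measured. Lung endothelium is mostly capillary and holds both general capillary cells, which carry lipoprotein lipase machinery, and aerocytes, which lie against the alveolar epithelium and take part in gas exchange. Arteries, veins and lymphatics have their own endothelium. Cdh5 is active in all of them, and the immunoprecipitate pools them, so fewer cells of a type and less RNA per cell cannot be told apart.

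Libraries held 10567561, 11068041, 11639446 and 11884614 counts for replicates 1 to 4, called libraries 1 to 4 below. Levels are given as CPM, counts scaled to a library total of 1000000, and 1 count was worth 0.0841 to 0.0946 CPM. The QuantSeq kit reads the 3′ end and gives about 1 tag per transcript, so counts were not divided by length. No pair of libraries agreed within counting error, and Pearson correlations of log2 levels between pairs ranged from 0.83 to 0.86 across all genes and from 0.761 to 0.831 across the 2066 genes at 100 CPM or more. Genes are not independent replicates. The labels do not say whether each library came from its own animal, so the spread between libraries may be partly technical. Of 23238 gene symbols, 9821, 10103, 9971 and 10429 had at least 1 count in libraries 1 to 4. In all 4 libraries 7198 symbols had a count, 31% of the total, and 10101 symbols (43.5%) had none in any library. The remaining symbols were seen in 3 libraries (1920), in 2 (1753) or in 1 (2266).

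After Rn45s, the most abundant transcripts were B2m, Actb, Ly6a, Ehd4 and Ramp2, with means from 4384 to 7959 CPM. Rn45s is the precursor of ribosomal RNA and took 8.63%, 6.60%, 3.94% and 3.13% of the counts in libraries 1 to 4 (5.58 ± 2.52%, SD, n = 4). Its level was highest in library 1 and lowest in library 4, and ribosomal RNA carries no poly(A) tail. With it, the 10 most abundant genes held 10.1 ± 2.68% of the counts, the top 100 held 25.5 ± 2.26% and the top 1000 held 60.9 ± 1.30%. A mean level of 100 CPM or more was reached by 2066 symbols, 8.89% of all.

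B2m, the light chain of class I major histocompatibility complex (MHC) molecules (chromosome 2, 122147686 to 122153083 in GRCm38, GENCODE M21, the annotation behind all gene positions given here), was the most abundant messenger RNA. It had 9146, 9234, 7223 and 6230.4 CPM in libraries 1 to 4, a mean of 7959 ± 1479 CPM (SD, n = 4), with libraries 1 and 2 above libraries 3 and 4. Every ± below is likewise an SD over the 4 libraries. Its heavy-chain partners H2-K1 and H2-D1 had means of 4314 ± 381 CPM and 4249.7 ± 387 CPM, and the ratio of H2-K1 to H2-D1 was 1.02 ± 0.0226, between 0.983 and 1.04 in every library. All nucleated cells carry these class I chains, so their abundance is not a mark of endothelium.

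Actb, cytoplasmic beta actin (chromosome 5, 142903115 to 142906754), had 6339, 5979.8, 6456 and 6299 CPM. At 6268 ± 204 CPM (SD, n = 4) it was among the 10 least variable of the genes with at least 100 CPM, predicted genes left out. Ly6a, which encodes the glycolipid-anchored surface protein Sca-1, had 5468, 4858, 4778 and 5436 CPM, and 2 further Ly6 genes, Ly6e and Ly6c1, had means of 3895 ± 402 CPM and 2981 ± 525 CPM. Ly6c1 ranged more widely than Ly6a, from 2349 CPM in library 3 to 3616 CPM in library 1. Ehd4, an ATPase of endosome recycling, had 5843, 4268, 5374 and 4785 CPM and was lowest in library 2.

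Ramp2, a single-pass membrane protein that turns the receptor encoded by Calcrl into a receptor for adrenomedullin (chromosome 11, 101246028 to 101259546), had 4266, 3999, 4540.0 and 4731 CPM. Its mean of 4384 ± 319.6 CPM (SD, n = 4) was the highest of any gene on the pan-endothelial list. Calcrl had 1453 ± 225 CPM, so that Ramp2 carried 3.09 ± 0.649 times the tags of Calcrl, and the ratio was 2.44 or more in every library. The related Ramp3 had 39 ± 38.2 CPM, and Ramp1 had at most 2 counts in any library. The ligand gene Adm was near 0, with 0, 6.41, 0 and 0.0841 CPM.

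Epas1, which encodes the oxygen-regulated transcription factor HIF-2α (chromosome 17, 86753700 to 86833410), had 4040.4, 3489.6, 3844 and 4855 CPM, highest in library 4. Its relative Hif1a had 22.9, 46.6, 10.6 and 85.2 CPM, and the tags of Epas1 outnumbered those of Hif1a by 57.0 to 364 times. Next in order came Itm2b, a membrane protein (3715 CPM), Cd93, a lectin of endothelial adhesion (3484), Fkbp1a, a prolyl isomerase that binds the drug FK506 (3212), Nfkbia, the inhibitor of NF-κB (3165), and Gnai2, an inhibitory G protein subunit (3011). Klf2, Timp3, Sdpr, Ifitm3 and Aldh2 followed between 2219 and 2620.1 CPM. Sdpr encodes a cavin of caveolae, the membrane pits of endothelium, and Aldh2 a mitochondrial aldehyde dehydrogenase.

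**Figure D1:**
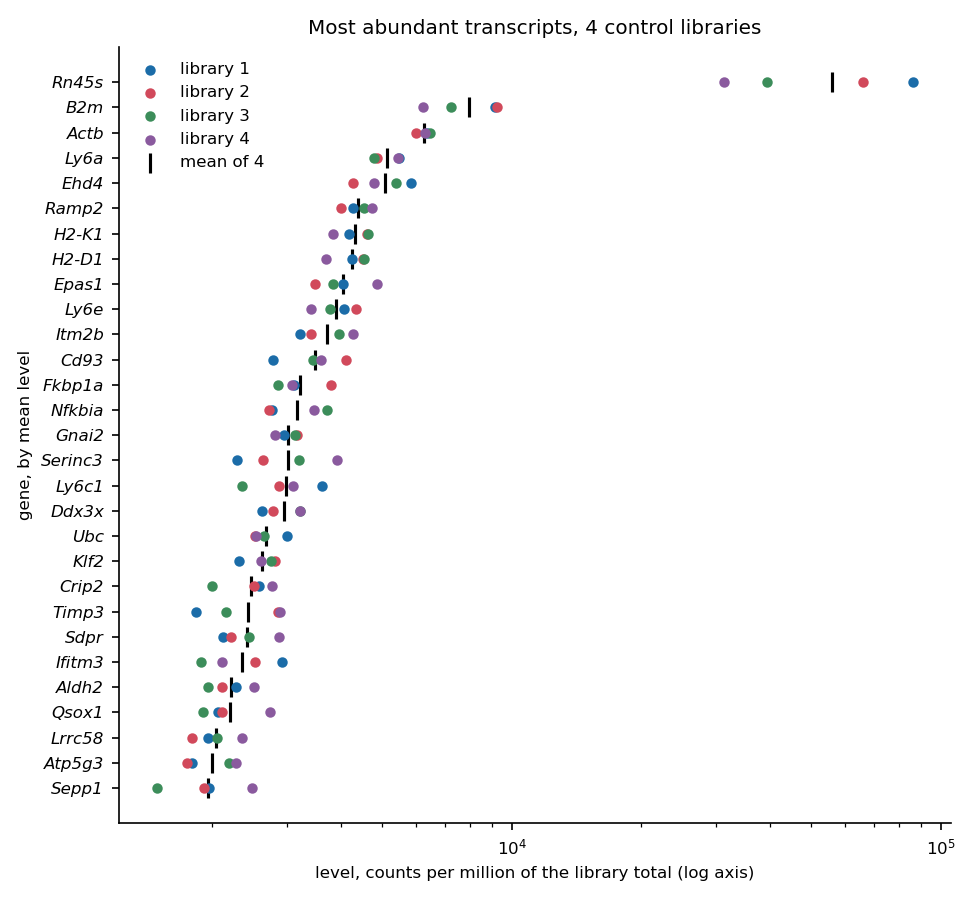
Level of 29 of the 30 most abundant genes, predicted genes left out, in CPM on a log axis, with a point for each of the 4 libraries and a bar for their mean. Rn45s lies above all other genes and spreads from 31282 to 86264 CPM, while the points of Actb lie between 5979.8 and 6456 CPM.

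The order of these levels was mostly not resolved by 4 libraries. Among the 29 neighbouring pairs in the ordered top 30, the ranges of 2 pairs did not overlap, Rn45s above B2m and Actb above Ly6a. When counts were divided by transcript length, 17 of the 30 genes stayed in the top 30. Short transcripts entered in their place, among them Scgb1a1 of club cells, Hba-a1 of red cells, Mgp, Egfl7 and Hilpda.

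The spread between libraries was set against counting error. Of 11397 genes with a summed count of at least 20, 11357 (99.6%) were called by a chi-square test of heterogeneity with a Benjamini-Hochberg adjusted p under 0.05. The test compares these libraries, not conditions, and at this depth it calls even a modest spread, so the call does not tell steady genes from variable ones. Counts were simulated for the same 11397 genes, and a known spread was given to a small set of those with high summed counts. In that set the test called 98.5% of genes with a coefficient of variation (CV) of 30% and 91.0% of those with 10%. It called 0.0536% of the genes simulated with counting error alone. How often it calls such a spread in genes of low count was not simulated. The CV, the SD as a percentage of the mean, fell with level. Its median was 107% at 10 to 20 CPM, 49.0% at 50 to 100 CPM, 24.6% at 200 to 500 CPM and 15.4% for the 108 genes at 1000 CPM or more. Counting error alone would give a median of 7.87%, 3.60%, 1.80% and 0.775% in the same bands.

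**Figure D2:**
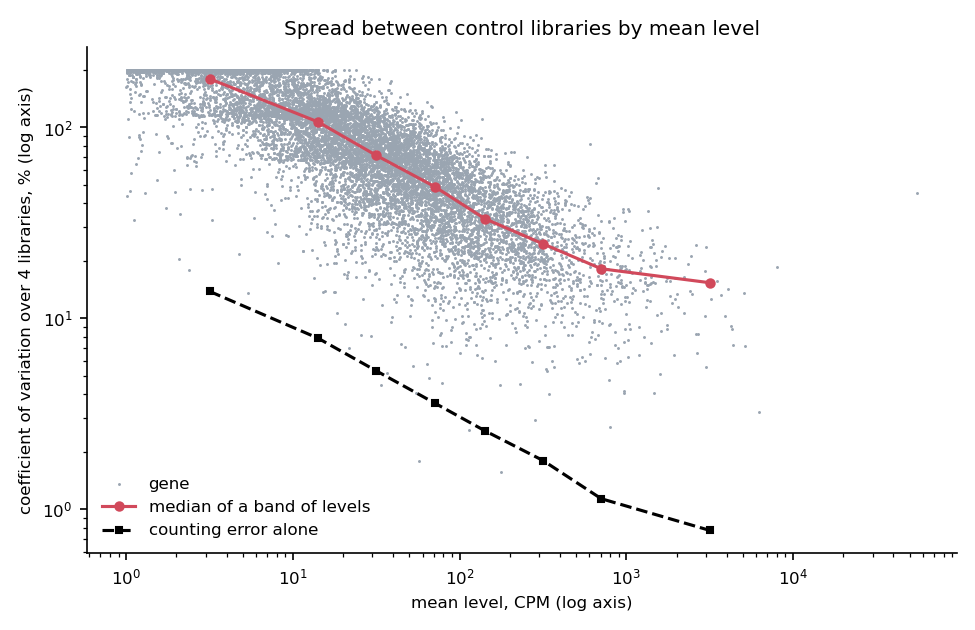
Coefficient of variation over the 4 control libraries against mean level, both on log axes, with a grey point for each gene averaging 1 CPM or more, the median of each band of levels in red and the median expected from counting error alone in black. The red line lies above the black line in every band, at 15.4% against 0.775% for genes at 1000 CPM or more.

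The 10 genes of lowest CV from 100 CPM upward, predicted genes left out, had various functions. Ager, a receptor for advanced glycation end products that marks alveolar type 1 epithelium, had 177, 175, 172 and 179 CPM, a CV of 1.57%. Ager and Naa15, a subunit of an N-terminal acetyltransferase at 115 ± 2.97 CPM, were the 2 genes of 2066 at that level that the test did not call. Sod1, cytosolic superoxide dismutase, had 799 ± 21.6 CPM, and Hpgd, which breaks down prostaglandins, had 1468, 1386, 1528 and 1482 CPM. Lamtor1, a lysosomal anchor of nutrient signalling, Tpm3, a tropomyosin, and Lipe, hormone-sensitive lipase, completed the group with Actb, Wdr89 and Rplp2-ps1. The last pair share their sequence and are described further on as a single signal. Ager, an epithelial marker, thus had the lowest CV of the 2028 genes at that level that remain with predicted genes left out.

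At the other end, the 10 most variable of these genes had CVs from 82.3% to 109%. Scn3b, a sodium channel beta subunit, had 773, 2946, 189 and 631 counts in libraries 1 to 4. Top2a, the topoisomerase of dividing cells, had 0, 2495, 2078 and 715 counts, and Lig1, the DNA ligase of replication, had 897, 2646, 269 and 1149. Both were high in library 2, but Top2a was absent from library 1 and Lig1 was lowest in library 3, so their order over the libraries differed. Mef2c, a transcription factor of endothelium and muscle, had 719, 76, 2300 and 3173 counts. Dusp1, an early-response phosphatase, had 2525, 1689, 9568 and 14264 counts and was high in libraries 3 and 4. The others were Tars, the threonine tRNA ligase, Col1a2, a fibrillar collagen chain, Pnrc2, Pcnx and Rragc.

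A transcript could be plentiful in 3 libraries and missing from the fourth. Of 6294 genes averaging 20 CPM or more, 579 (9.2%) had 0 or 1 count in at least 1 library, where that mean corresponds to over 200 counts. Rsf1, a chromatin remodelling factor, had 930, 1, 1657 and 938 counts. Ythdf2, a reader of methylated RNA, had 1389, 0, 640 and 896 counts, and Prg4, which encodes lubricin, had 0, 946, 1454 and 661. Fam101b, an actin regulator, had 770, 1311, 0 and 1049 counts and Wipf1, a partner of the Wiskott-Aldrich protein, had 942, 0, 909 and 959. Rsf1, Ythdf2 and Wipf1 were thus missing or nearly so from library 2, Prg4 from library 1 and Fam101b from library 3. Ankfy1, Unc93b1 and Zfp219 also had no count in library 2, and Top2a and Nol4l none in library 1.

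Such absences depended on level. Where the other 3 libraries averaged 10 to 20 CPM, a gene had 0 or 1 count in 29.7% of gene and library pairs, and at 20 to 50 CPM in 10.3%. The figure was 1.72% at 50 to 100 CPM, 0.0470% at 100 to 200 CPM and 0 from 200 CPM upward. Library 2 had the largest share at 20 to 50 CPM (13.3%) and library 4 the smallest (6.31%). A level under about 100 CPM therefore rested on libraries that could each miss the transcript, and a single 0 there does not show that a gene was silent.

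**Figure D3:**
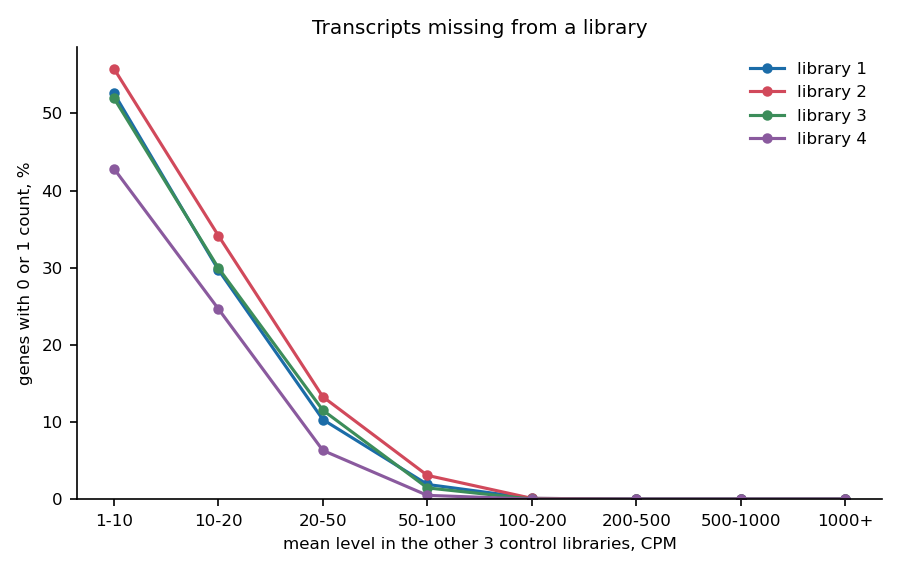
Percentage of genes with 0 or 1 count in a library, by the mean level of the gene in the other 3 libraries in CPM, with a line for each library. All 4 lines fall from above 40% at 1 to 10 CPM to 0 from 200 CPM upward, with library 4 lowest at each level up to 100 CPM.

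The labelled cell type was checked against its defining markers. All 29 pan-endothelial genes had counts in all 4 libraries, against 31% of all symbols, and 26 of them reached a mean of 100 CPM, against 8.89%. Their median level was 737 CPM, beside 0.196 CPM over all 23238 symbols and 17.99 CPM over the 13137 with any count. These genes were picked as known endothelial markers, with earlier results of these data known. Shares and levels above those of all symbols thus follow in part from the choice of these genes. Summed, they had 22532, 22186, 22462 and 23997 CPM, a mean of 22794 ± 816 CPM (SD, n = 4), and a CV of 3.58%. Cdh5, whose promoter drove the recombinase, had 846, 592, 843 and 738 CPM. Pecam1, the adhesion molecule CD31, had 651, 703, 776 and 841 CPM, and Kdr, the main receptor for vascular endothelial growth factor (VEGF) A, had 1051, 894, 1206 and 1203 CPM.

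Members of the list differed by more than 100-fold. After Ramp2 came Egfl7, a secreted angiogenic factor, at 1883 ± 226 CPM and Ptprb, the vascular endothelial phosphatase, at 1378 ± 258 CPM. Kdr and Flt1, the decoy receptor for VEGF, were close, with a ratio of 1.22 ± 0.0988. Tie1, an orphan receptor kinase, had 863 ± 228 CPM, and Tek, its partner that binds angiopoietins, had 132, 269, 329.6 and 436 CPM, lowest in library 1. The 3 members below 100 CPM were Sox7 (17.7, 34.6, 78.7 and 51.7 CPM), Sox18 (1.23, 22.6, 39.9 and 1.85) and Nos3, endothelial nitric oxide synthase (27.3, 4.7, 12.9 and 19.9). Sox18 was near 0 in libraries 1 and 4. The third member of that transcription factor family, Sox17, had 291, 234, 209.8 and 205 CPM in these mice, whose genotype label names no Sox17 allele.

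General capillary genes gave the largest sum among the subtype lists, 10362 ± 916 CPM from 12 genes, or 45.4 ± 3.23% of the pan-endothelial sum, with a median member of 492 CPM. Cd93 supplied 33.6% of it and is not specific to that cell. Gpihbp1, which carries lipoprotein lipase to the capillary lumen, had 1084, 908, 1424 and 1435 CPM, and Lpl, the lipase itself, had 948, 1062, 1338 and 2037 CPM. Both were higher in library 4 than in library 1, and the ratio of Lpl to Gpihbp1 lay between 0.874 and 1.42. Plvap, the diaphragm protein of fenestrae, had 1187, 1087, 743 and 679.9 CPM, and ran the opposite way, highest in library 1. Hilpda, a lipid droplet protein induced by hypoxia in many cells, had 1739.8, 1473, 1965 and 2133 CPM. Kit, the stem cell factor receptor, had 214 ± 46.5 CPM, whereas Aplnr, the apelin receptor, had 34.9, 0, 14.3 and 0 CPM, with none in libraries 2 and 4. Glp1r was seen in library 4 alone.

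All 12 aerocyte genes were present in all 4 libraries (beside 31% of all symbols), and they summed to 6476 ± 597 CPM. Car4, a carbonic anhydrase of the capillary surface, had 908, 1161, 1082 and 898 CPM. Emp2, a tetraspan protein also made by alveolar type 1 cells, had 1139, 1386, 1254 and 1482 CPM, and Cyp4b1, a cytochrome P450, had 933 ± 111 CPM. Apln, which encodes the peptide apelin, had 237, 230.1, 304 and 189 CPM, and Ednrb, the endothelin B receptor, had 62.4, 91.6, 93.2 and 142, highest in library 4. The mean of Apln was thus 240.1 CPM, beside 12.3 CPM for the receptor gene Aplnr, which was not seen in every library. Kdr is on this list too. The median member had 441 CPM.

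Arterial genes summed to 2720.2 ± 261 CPM, with 15 of 18 in all 4 libraries (beside 31% of all symbols) and a median member of 73.7 CPM. Mgp, an inhibitor of calcification, had 763, 741, 818 and 810.0 CPM and was the steadiest of them. Hey1, a Notch target, had 263 ± 52.7 CPM, and Dll4, a Notch ligand, had 112, 225, 124 and 198 CPM. Efnb2, the arterial ephrin, had 290.2, 138, 116 and 298 CPM, higher in libraries 1 and 4. Of the arterial connexins, Gja4 had 80.2, 68.1, 75.7 and 82.2 CPM, while Gja5 had no count in any library, which allows up to 0.252 to 0.284 CPM per library (3 counts, counting error only). Bmx, an arterial kinase, had 2.46, 49.2, 1.12 and 55.3 CPM, and Dkk2 was at 0.

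Venous genes summed to 1972 ± 179 CPM, with 10 of 14 in all 4 libraries (beside 31% of all symbols) and a median member of 60.7 CPM. Lrg1, a secreted glycoprotein, had 636, 659.6, 547 and 613 CPM, and Vwf, the von Willebrand factor that tethers platelets, had 644, 317, 905 and 501 CPM, highest in library 3. Nr2f2, the nuclear receptor that specifies veins, had 149, 105, 101 and 91.5 CPM. Slc6a2, the noradrenaline transporter, had 126, 183, 207 and 199.6 CPM. Ackr1, the atypical chemokine receptor of venules, had no count, and Selp, P-selectin, had 479 counts in library 3 and none elsewhere.

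Lymphatic genes were uneven. Lyve1, the hyaluronan receptor, gave 69.7% of a sum of 2010.0 ± 215 CPM, with 1549, 1520.4, 906 and 1627 CPM, lowest in library 3. Ccl21a, a chemokine of lymphatic vessels, had 387, 306, 362 and 288 CPM, but its 3′ end is shared with near-identical copies and its level is uncertain. Flt4, the VEGF C receptor, had 124, 224, 302 and 112 CPM. Prox1, the factor that defines lymphatic identity, had no count in any library, Pdpn had 19.3, 21, 0 and 8.41 CPM, and Mmrn1 had 70.2, 0, 9.97 and 0. In all 4 libraries 4 of 9 members were seen (beside 31% of all symbols), and the median member was Mmrn1. The list's 2 largest genes are not exclusive to lymphatics.

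**Figure D4:**
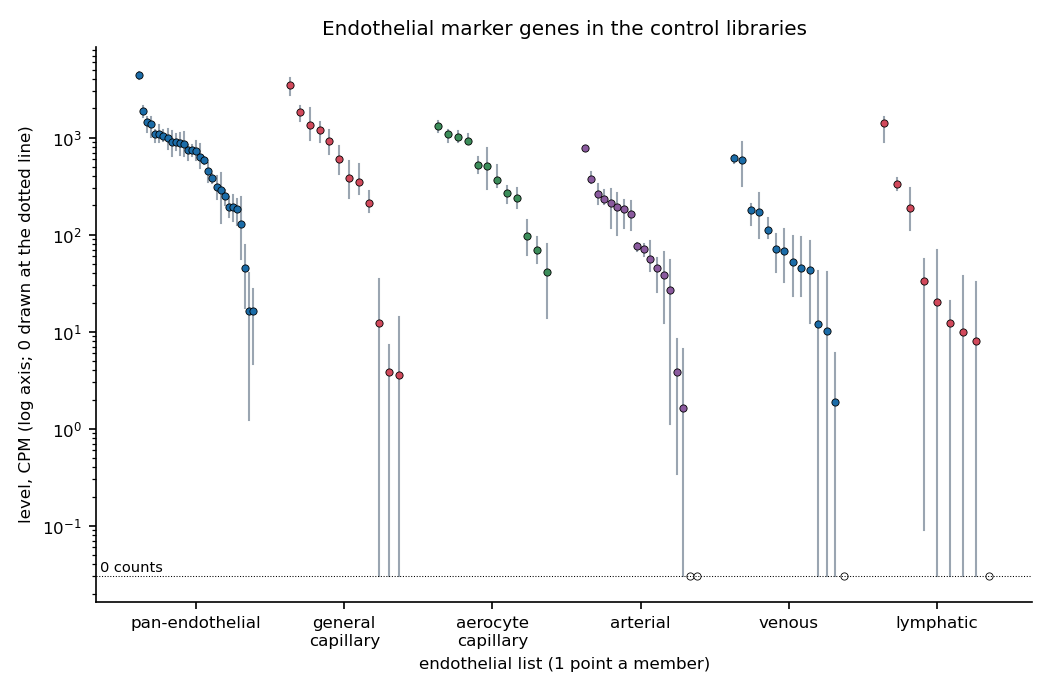
Mean level of each member of 6 endothelial lists in CPM on a log axis, with a point for each gene in order of level and a grey line from its lowest to its highest library. The 29 pan-endothelial genes lie between 16.2 and 4384 CPM, and open points on the dotted line mark the members with 0 counts in all libraries, Gja5, Dkk2, Ackr1 and Prox1.

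Among the lists of secreted and lumen-facing products, the summed levels of carriers and of matrix proteins exceeded that of signals in every library. The plasma carrier and lumen list summed to 13868 ± 1097 CPM, matrix to 12101 ± 1093 CPM, signals to 4236 ± 218 CPM and coagulation to 3835 ± 176 CPM. The carrier and coagulation lists are led by products held at the membrane, B2m and Thbd, and Procr and F3 are membrane proteins too. Of the 106 genes in these lists 64 had counts in all 4 libraries (60.4%, against 31% of all symbols). No count in any library was found for 9 (8.49%, against 43.5% of all symbols). The lists were made of genes known in vascular biology, so shares that differ from those of all symbols follow in part from the choice.

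Of the secreted signals, 19 of 40 were seen in all 4 libraries (beside 31% of all symbols) and the median member had 8.81 CPM. Egfl7 alone gave 44.5% of the sum. Sema3c, a guidance ligand, had 241, 411, 579 and 308 CPM, and Cxcl12, a chemokine that binds CXCR4, had 535, 328, 275 and 263 CPM, highest in library 1. Edn1, the vasoconstrictor endothelin, had 219.5, 86.1, 235 and 314 CPM, lowest in library 2. Pdgfb, which recruits mural cells, had 63, 319, 353 and 82.9 CPM, high in libraries 2 and 3 and low in 1 and 4. Vegfa had 32.8, 129, 33.1 and 96.6 CPM and Vegfc had 41.9, 64.8, 83.9 and 116. Angpt2, the angiopoietin of endothelium, had 17.7, 21.8, 66.7 and 50.1 CPM, and Angpt1, an agonist for Tek, had 35, 0, 16 and 33.6. The cytokines and chemokines Il6, Ccl2 and Cxcl1 and the growth factors Fgf2, Hgf and Pdgfd were at 0 in every library, as were Nppc and Dkk2. Tgfb1 had a single count over the 4 libraries.

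Of 37 matrix genes 26 were seen in all 4 libraries (beside 31% of all symbols), with a median of 71.1 CPM. Inhibitors of metalloproteinases led them. Timp3 had 1841, 2853, 2160.3 and 2883 CPM and Timp2 1979, 1685, 1788 and 2409.6 CPM. Igfbp4 and Igfbp7, binding proteins for insulin-like growth factors, had means of 937 ± 137 CPM and 887 ± 148 CPM, and Sparc, a collagen-binding glycoprotein, had 554, 1138, 893 and 739 CPM, lowest in library 1. Tinagl1, a basement membrane glycoprotein, had 881 ± 144 CPM. The chains of type IV collagen, the network of basement membrane, were level with each other: Col4a1 had 367, 469, 406 and 376 CPM and Col4a2 404, 372, 504 and 516, a ratio of 1.13 ± 0.248. Laminin genes were lower, with Lamb2 at 134 ± 40.5 CPM, Lama5 at 56.8 ± 29.5 CPM and Lama4, found in endothelial basement membrane, at 0, 0, 8.59 and 52.3 CPM. Nid1 had 127 ± 15.2 CPM, and its relative Nid2 had no count.

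Of 17 coagulation genes 8 were seen in all 4 libraries (beside 31% of all symbols), with a median of 29.3 CPM. Thbd, thrombomodulin, which turns thrombin toward the activation of protein C, gave 47.5% of the sum with 1837, 1801, 1529 and 2114 CPM. Its partner Procr, the protein C receptor, had 0, 0, 11.8 and 18.8 CPM. The anticoagulant protein S gene Pros1 had 116, 116, 116 and 169 CPM, highest in library 4. Plat, tissue plasminogen activator, had 59.5 ± 20.8 CPM, and Tfpi, the inhibitor of the tissue factor pathway, 13.9, 49.5, 18.3 and 0 CPM. F8, the gene of factor VIII, and F3, tissue factor, each had 1 count in all.

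Of the 12 genes on the plasma list 11 were seen in all 4 libraries (beside 31% of all symbols), and B2m gave 57.4% of the sum. Sepp1, selenoprotein P, had 1975, 1918, 1489 and 2481 CPM, and Cst3, a protease inhibitor, had 802 ± 160.5 CPM. Clu, a chaperone of extracellular proteins, had 349.8, 438, 343 and 355 CPM, highest in library 2. Apoe had 196, 49.8, 92.7 and 105 CPM, and the complement genes C3 and C4b had means of 40.9 and 21.9 CPM.

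Of 114 surface genes, 81 had counts in all 4 libraries (beside 31% of all symbols), 60 reached 100 CPM (beside 8.89%) and 7 had no count (beside 43.5%). These genes too were picked from vascular biology. The receptor list summed to 16985 ± 1545 CPM, the adhesion list to 15159 ± 942 CPM and the enzymes and transporters to 20227 ± 896 CPM. Their median members had 90.5, 241 and 146 CPM. After Ramp2, Nrp1, a co-receptor for VEGF and semaphorins, had 1661, 1460.1, 1543 and 1778 CPM, against 23.3, 31.6, 71.2 and 16.3 CPM for Nrp2, a ratio between 21.7 and 109. Bmpr2, the type II receptor for bone morphogenetic proteins, had 921, 798, 772 and 1584 CPM, highest in library 4. Its partner Acvrl1 (ALK1) had 829, 772, 703 and 875 CPM, and their co-receptor Eng had 545, 484, 346 and 433 CPM.

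S1pr1, the sphingosine 1-phosphate receptor that tightens junctions, had 641, 966, 866 and 1161 CPM, while S1pr2 and S1pr3 were seen at over 1 CPM in library 4 alone. Of Notch receptors, Notch4, which is largely endothelial, had 267, 388, 417 and 367 CPM and Notch1 74.6, 54.3, 215 and 186 CPM. Adrb1, the beta 1 adrenergic receptor, had 306 ± 62.5 CPM, and Npr1, the receptor for atrial natriuretic peptide, 256 ± 109 CPM. Tgfbr2, a receptor for TGF-β, had 99.7 ± 35 CPM, whereas Tgfbr1 had 13.6, 0, 21.9 and 8.5 CPM. Ednra, the endothelin A receptor of smooth muscle, Ptgir, the prostacyclin receptor, and Osmr were at 0.

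Adhesion genes were led by Cd93, Icam2 (1359.7, 903, 899 and 1180.3 CPM), Esam (1216, 999, 769.9 and 1016) and the sialomucin Podxl (733, 915, 1041 and 1025). Cd36, a receptor for fatty acids, had 899, 806, 913 and 613 CPM. Cldn5, the tight junction claudin of endothelium, had 587, 853, 622 and 489 CPM. Icam1, a leukocyte ligand induced by inflammation, had 321, 525, 166 and 520.1 CPM, and the other inducible ligands were low: Vcam1 had 12.2, 86.6, 19.9 and 52.5 CPM and Sele, E-selectin, had no count. Cd47, which signals against phagocytosis, had 233, 958, 988 and 508 CPM, lowest in library 1.

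Among enzymes and transporters, Aqp1, the water channel, was steady at 1125, 1270.1, 1128 and 1246 CPM. Ace, angiotensin-converting enzyme, of which lung endothelium is a known major source, had 806, 446, 844 and 1047 CPM, lowest in library 2. Slco2a1, the prostaglandin transporter, had 463, 338, 728 and 577 CPM. Abcb1a and Abcg2, drug efflux pumps, had 231 ± 32.1 CPM and 125 ± 66.1 CPM. Slc6a4, the serotonin transporter, and Enpp1 had no count. Mfsd2a and Slc2a1 are transporters typical of brain endothelium. Mfsd2a had 0.189, 0.0904, 0.0859 and 0 CPM, and Slc2a1 had 0, 22.8, 0 and 0.0841 CPM.

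Of 44 listed transcription factors, picked as known factors of endothelium, 39 were seen in all 4 libraries (beside 31% of all symbols) and 26 reached 100 CPM (beside 8.89%). They summed to 20237 ± 1457 CPM. After Epas1, the 3 highest were Krüppel-like factors. Klf2, induced by laminar flow, had 2317, 2804, 2748 and 2612 CPM, and Klf4, its flow-responsive relative, had 2054, 2106, 2081 and 1586 CPM, lowest in library 4. Klf9, a target of glucocorticoid signalling, had 1548, 1393, 1445 and 2188 CPM, highest in library 4. The 250 bases before the RefSeq start of each (GRCm38.p6) are shown because these 3 members stood next to each other in level. Klf2 lies on the plus strand (window chr8:72318812-72319061), Klf4 on the minus strand (window chr4:55532476-55532725) and Klf9 on the plus strand (window chr19:23140976-23141225). Capitals mark a loose form of the MEF2 motif, CTA and TAG with any 4 bases between them, which reads the same on both strands.
Klf2: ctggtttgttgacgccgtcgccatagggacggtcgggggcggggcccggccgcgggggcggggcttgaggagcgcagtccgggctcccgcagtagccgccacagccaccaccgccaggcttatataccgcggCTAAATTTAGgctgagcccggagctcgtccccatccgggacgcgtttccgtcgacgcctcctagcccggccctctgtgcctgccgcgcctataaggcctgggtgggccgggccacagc
Klf4: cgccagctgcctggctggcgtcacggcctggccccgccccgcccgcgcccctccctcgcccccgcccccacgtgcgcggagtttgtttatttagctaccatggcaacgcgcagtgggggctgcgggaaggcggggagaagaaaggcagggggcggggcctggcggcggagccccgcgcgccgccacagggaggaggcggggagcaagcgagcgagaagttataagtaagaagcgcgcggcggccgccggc
Klf9: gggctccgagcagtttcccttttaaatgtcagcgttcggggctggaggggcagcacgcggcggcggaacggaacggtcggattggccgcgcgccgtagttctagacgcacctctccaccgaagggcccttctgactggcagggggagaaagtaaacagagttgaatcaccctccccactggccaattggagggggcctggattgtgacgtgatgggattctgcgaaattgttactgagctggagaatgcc
This loose pattern was found once in Klf2, starting 118 bases before the start, and not in Klf4 or Klf9. It occurred in 1052 of 32851 such windows (3.20%), a share of the pattern and not of a stricter motif. The GC box GGGCGG or its complement CCGCCC occurred at 2 places in the Klf2 window, 4 in Klf4 and 0 in Klf9, and in 32.7% of all windows. A match describes the letters and is no evidence of binding. Among MEF2 factors, Mef2a had 181, 220.1, 124 and 227 CPM and Mef2c 68, 6.87, 198 and 267 CPM, the latter nearly missing from library 2. Windows were found for 27 of the 44 listed factors.

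Below the Krüppel-like factors, Tcf4, an E protein, had 975 ± 85.6 CPM, Tbx3 912 ± 172 CPM, Gata2, a factor of endothelium and blood stem cells, 874 ± 168 CPM, and Foxp1 862 ± 127 CPM. Id1 and Id3, targets of bone morphogenetic protein signalling, were well above the median gene: Id1 had 567, 761, 1016 and 831 CPM and Id3 had 629, 488, 575 and 787 CPM. Foxf1, required for lung vessels, had 526, 353, 445 and 602 CPM. The ETS factors that define endothelium were moderate: Erg had 211, 204, 291 and 287 CPM, Fli1 139.6, 221, 256 and 155 and Ets1 156, 55.2, 141 and 65.3. Etv2, an embryonic factor, and Nkx2-3 had no count.

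Of 39 Hox symbols, 25 had no count (64.1%, beside 43.5% of all symbols) and 4 were seen in all 4 libraries (10.3%, beside 31%). The 4 were Hoxa3, Hoxa5, Hoxb4 and Hoxb5, which belong to the anterior groups 3 to 5 of clusters A and B. Hoxa5, known for its role in lung, had 401, 538, 428 and 659 CPM, Hoxb5 112, 135, 175 and 84.3 and Hoxb4 97, 69.7, 24.8 and 84.9. Hoxa3 had 333, 392, 165 and 238 counts, but these equalled the counts of its overlapping antisense gene Hoxaas2 in every library and cannot be assigned. These Hox genes are also active in lung mesenchyme.

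Early-response genes differed from one another. Jun had 1179, 1436, 1661 and 1277 CPM, Jund 373 ± 54.4 CPM and Ier3 129.5, 239, 237 and 221 CPM. Fos had 0, 0, 0 and 8.67 CPM, Egr1 25.5, 32.3, 144 and 11.6 and Egr2 no count. The list summed to 2292, 2267, 3532 and 3282 CPM, of which its member Dusp1 gave 239, 153, 822 and 1200.2 CPM.

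Noncoding transcripts were few. Apart from Rn45s, annotated long noncoding RNAs made up 0.556 ± 0.0409% of the counts, with 65 of 1833 symbols in all 4 libraries (beside 31% of all symbols). Malat1, a nuclear transcript, had 1184, 1079.7, 1408 and 1512 CPM and Neat1, which builds paraspeckles, 625, 85.6, 486 and 285 CPM. H19, Rmrp and Rpph1 had no count. Of 105 ribosomal protein symbols 96 were seen in all 4 libraries (91.4%, beside 31% of all symbols), and the family summed to 18589 ± 1073 CPM. That family includes pseudogene rows. Its highest member was Rplp2-ps1 at 969 CPM, whose counts cannot be told from those of Wdr89. Rpl22, the gene that carries the tag, had 236, 173, 187 and 186 CPM and its paralog Rpl22l1 173, 74, 209 and 132. The counts do not separate the tagged transcript from the untagged one. Xist had 19.6, 93.6, 36.6 and 59.5 CPM, Ddx3y at most 2 counts in a library, and Kdm5d and Eif2s3y none. Tsix, which runs antisense to Xist, had 11.3, 89.4, 36.6 and 59.5 CPM, the same values in libraries 3 and 4, and the sources used here do not state strand.

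Each list of markers of other cell types summed to less than the pan-endothelial list and than either capillary list. The club and ciliated and the erythroid sums were about as large as the venous and lymphatic sums. The 100 genes on all lists of other cell types summed to 6669 ± 678 CPM, beside 6476 ± 597 CPM for the aerocyte list. Their sum was above the aerocyte sum in libraries 1, 2 and 4. In library 3 it was below, at 5716 CPM against 6638 CPM. Club and ciliated genes had 2663, 2247, 1755 and 2199 CPM (mean 2216 ± 371 CPM), alveolar type 2 genes 1258, 1310.3, 954 and 1054 CPM, and alveolar type 1 genes 607, 561, 568 and 649 CPM. As shares of the pan-endothelial sum these came to 9.73 ± 1.69%, 5.03 ± 0.836% and 2.61 ± 0.0991%. Their leading members are among the most abundant transcripts of their own cells: Scgb1a1, the club cell secretoglobin, had 1809, 1621, 886 and 1221 CPM, highest in library 1, and Sftpc, a surfactant protein, had 459, 531, 534 and 379 CPM. Foxj1, which directs the building of cilia, had 19.3, 0, 2.58 and 12.5 CPM and Dynlrb2 of cilia had none.

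Erythroid genes summed to 2009.6 ± 476 CPM, with Hba-a1 at 1037, 1542, 1392 and 2141 CPM, highest in library 4. Part of that sum may be repeated signal, because beta-globin rows ran alike in every library. Hbb-bs had 139 ± 15.4 CPM beside 133 ± 17.4 CPM for Hbb-b1, and Hbb-bt 95.2 ± 24.7 CPM beside 90.5 ± 24.7 CPM for Hbb-b2. Alas2, the first enzyme of red cell haem synthesis, had 3 counts in library 2 and none elsewhere. Fibroblast genes had 373, 542, 282 and 333 CPM, with Col1a2 highest in library 2. Smooth muscle and pericyte genes had 99.2, 60.0, 75.9 and 144 CPM, and Cnn1, Higd1b and Cox4i2 were at 0. Macrophage and monocyte genes had 86, 90.8, 85.7 and 124 CPM, none of 11 in all libraries (beside 31% of all symbols), and Adgre1 and Siglecf at 0. Neutrophil genes summed to 77 ± 32.8 CPM, cardiomyocyte genes to 33.2 ± 22.2 CPM, lymphocyte genes to 7.88 ± 7.23 CPM, Schwann genes to 7.29 ± 11.4 CPM and platelet genes to 3.61 ± 6 CPM. The last 2 sums rested on 1 library each: without library 4 the Schwann sum was 1.70 CPM, and without library 1 the platelet sum was 0.624 CPM. The 4 mesothelial genes had no count. Of all 100 genes on lists of other cell types 19% were at 0, against 4.30% of the 93 endothelial genes and 43.5% of all symbols. Counts in all 4 libraries were found for 36% of the other cell type genes and 83.9% of the endothelial genes, against 31% of all symbols. The part of such RNA in the levels above was not tested.

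**Figure D5:**
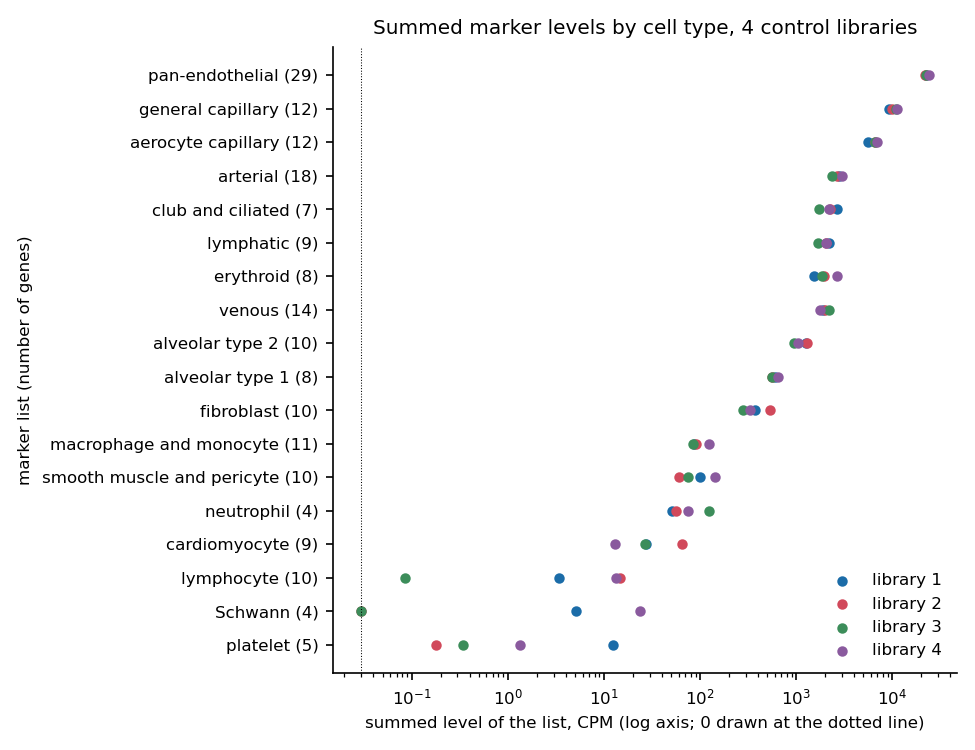
Summed level of each marker list in CPM on a log axis, with a point for each of the 4 libraries and the number of genes in brackets; lists share some genes and differ in size. The pan-endothelial sum lies near 22794 CPM in all libraries, the club and ciliated sum near 2216 CPM, the erythroid sum near 2009.6 CPM, and the lymphocyte and platelet sums below 20 CPM.

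Many genes with no count belonged to families known from other tissues. Of 1125 olfactory receptor symbols 1116 were at 0 (99.2%), as were all 338 vomeronasal receptors and all 53 keratin-associated proteins. Collagens were not such a family: of 44 symbols 21 were at 0 (47.7%, beside 43.5% of all symbols), and Col4a2, Col4a1 and Col1a2 were the 3 that reached 100 CPM. A count of 0 in each library allows up to 0.252 to 0.284 CPM, for counting error only.

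Several levels could not be assigned to a single gene. Of 2056 genes at 100 CPM or more whose last 200 bases were compared with all GENCODE M21 transcripts, 70 (3.40%) shared at least 50% of their 50-base words with another gene. The predicted gene Gm1821, a processed pseudogene related to ubiquitin, had 2511, 2593, 2907 and 2589 CPM, whereas Ubb, the polyubiquitin gene whose tail it shares, had 4.45, 9.49, 10.4 and 3.45 CPM. Likewise Oaz1-ps had 226 ± 34.5 CPM and its parent Oaz1 4.79 ± 8.3 CPM. Gapdh, usually abundant, had 6.72, 16.5, 11.3 and 16.1 CPM, and its tail is shared with copies as well. Hba-a1 and Hba-a2 share most of their tails, and the ratio between them ran from 24.3 to 899. All of Vps25's tail lies in Ramp2 transcripts, so its 602 CPM is uncertain.

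Some overlapping genes repeated the same signal. Of 327 pairs of overlapping genes with at least 20 counts in every library, 26 had counts within 20% of each other in all 4. Wdr89 had 10129, 11183, 10705 and 11756 counts, and Rplp2-ps1 had 10129, 11183, 10674 and 11756. The counts of Foxp3, a factor of regulatory T cells, were 329, 128, 34 and 154, the same as those of Ccdc22, which overlaps it. Myo1h matched Kctd10 in the same way. Pairs with the same or nearly the same counts are read here as a single measurement, and the counts do not tell which gene it came from. Other pairs of the 26 differed more, such as Polr2c and Dok4 with 4714 and 3966 counts in library 1.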

How the data were processed

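Ribosome-bound RNA from the lungs of 4 control libraries was analysed. Per the labels' protocols, HA-tagged ribosomes were immunoprecipitated, RNA was purified (RNeasy) and sequenced as QuantSeq 3′ libraries. Each deposited table lists unnormalized read counts by gene symbol. Bowtie2, bedtools and mm10 are named without versions, per the submitters' processing notes. The treatment of strand, duplicate reads and multiple matches is not stated there. Molecular identifiers are not mentioned in the labels, so intervals and limits cover counting error only.

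Here 44 duplicate rows of 35 symbols were summed, leaving 23238 symbols, and counts were scaled to the library total. Totals of 10567561 to 11884614 counts make 3 counts worth 0.252 to 0.284 CPM. Spread was tested with a chi-square statistic over the 4 libraries for genes with a summed count of at least 20, with Benjamini-Hochberg adjustment, and tested on simulated data. There is a single group, so no contrast between groups was made. Named genes were the 30 of highest mean, the 5 highest and all zero members of each list, and, from 100 CPM, the 10 of lowest and of highest CV, and, from 20 CPM, the 10 most abundant with 0 or 1 count in a library, without predicted genes or receptor segments. Further list members are named by their known role, chosen after their values were seen, and 3 genes are not reported here. Members and lists were chosen with earlier results of these data known. GENCODE M21 (GRCm38) matched 98.3% of symbols, and promoter windows came from RefSeq GRCm38.p6. Alternatives were other scales (edgeR 4.0.16, DESeq2 1.42.0, totals without Rn45s), other count minimums, division by transcript length, unsummed duplicates and leaving out each library. Python 3.11.15, pandas 2.3.3, scipy 1.17.1, numpy 2.4.6 and R 4.3.3 were used.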

Additional observations from a re-analysis of the deposited data

Results flagged for a closer look

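In 11 of 183 sums and gene levels examined (6.01%), a single library lay far from the other 3: its gap to the nearest of them, as a share of the whole range, exceeded Dixon's critical value for 4 samples. Chance alone sets apart about 5% of such groups of 4, close to the share found. Some of the genes examined had been chosen for a very low or high spread or for a missing library (Lamtor1 and Wipf1), so that share does not apply to them, and the values below are descriptions only. Library 4 was apart for 5 values. Its summed macrophage and monocyte level was 124 CPM, against 85.7 to 90.8 CPM in the others. Pros1 was at 169 CPM there against 116.0 to 116.1 CPM, and Myh11, the smooth muscle myosin, at 68.1 CPM against 10.5 to 15.1 CPM. Klf4 was lowest there, at 1586 CPM against 2054 to 2106 CPM, as was Lamtor1, at 270.0 CPM against 285 to 287 CPM. Library 1 was apart for the summed platelet level, 12.6 CPM against 0.181 to 1.35 CPM, for Mmrn1, 70.2 CPM against 0 to 9.97 CPM, and for Ier3, lowest at 129.5 CPM against 221 to 239 CPM. Library 2 was apart for Clu, 438 CPM against 343 to 355 CPM, and for Wipf1, 0 CPM against 78.1 to 89.1 CPM. Library 3 was apart for Lyve1, lowest at 906 CPM against 1520.4 to 1627 CPM. No library was apart in all of them.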

How the results depend on the processing

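Of 266 comparisons of the main results with an alternative, 260 kept within the replicate SD or within 1.5 times the count. Leaving out a library cannot move the mean of a sum by more than its SD. Those comparisons of sums were therefore bound to keep within the limit, and the 260 is no measure of robustness. With counts divided by transcript length, 17 of the 30 most abundant genes were shared. With edgeR's filterByExpr, 6092 of 6110 genes were called for spread, fewer because fewer genes were tested. Leaving Rn45s out of the total raised the median log2 level by 0.08 for genes of at least 20 CPM and moved 4 sums: pan-endothelial 24142 CPM, secreted signals 4488 CPM, coagulation 4061 CPM and surface enzymes and transporters 21441 CPM. The same setting moved 12 named genes by more than their SD, all upward, among them Actb (6641 CPM) and Ager (186 CPM). The edgeR and DESeq2 scales moved none of the named genes or sums past that limit. Leaving out each library in turn gave 7526 to 7752 genes in all remaining libraries, 10550 to 10765 symbols at 0, 27 to 30 shared members of the top 30, 10620 to 10812 genes called for spread and 10.5 to 13.6% of absences at 20 to 50 CPM. No paired analysis was possible because the results come from no test between groups. Depth limits statements below 0.252 to 0.284 CPM, and the misses in single libraries limit levels below about 100 CPM.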
